A study of Mus musculus with 6 samples.

Results

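Iron handling genes were followed in mouse liver during regrowth after partial hepatectomy (PHX), an operation in which some lobes are cut away and the rest regrows. The set held 10 genes, the rows of the count table whose Ensembl identifiers map to Hamp, Hfe, Tfr2, Trf, Tfrc, Slc11a2, Fth1, Ftl1, Slc40a1 and Cp, out of 12027 rows in all. All 10 had a row, passed the filter on low counts and held at least 489 counts in every library. The study asked how O-GlcNAc, a sugar placed on intracellular proteins, acts in the regrowing liver. OGT is the enzyme that attaches this sugar and OGA the enzyme that removes it.

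Each group was 1 library of whole-liver mRNA, made from RNA of 3 mice pooled in equal amounts and run in 2 lanes. The mice were male C57BL/6, 8 weeks old, and had all undergone PHX. OGA-KO (genotype OGA-/-) stood against OGA control (OGAfl/fl) at 14 and at 28 days, and OGT-KO (OGT-/y) against OGT control (OGTfl/y) at 28 days. Only 28 days are covered for OGT; a 14-day pair of that line was not analysed here. The knockouts were hepatocyte-specific, so the other liver cells kept the enzyme, and the Cre driver is not given in the sources used here. With 1 pool per group there was no replicate spread to hold a difference against. In bulk tissue, fewer cells of a type and less RNA per cell cannot be told apart.

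The liver is the main store of body iron and the source of hepcidin, the hormone encoded by Hamp. Hepcidin binds ferroportin (Slc40a1), the only known cellular iron exporter of mammals, and causes its degradation, so that less iron enters the plasma. Hepatocytes adjust Hamp transcription to iron through BMP ligands and SMAD proteins, with Hfe, transferrin receptor 2 and hemojuvelin as upstream sensors, and to inflammation through IL-6 and STAT3. Inside cells, the iron regulatory proteins bind a short hairpin, the iron-responsive element (IRE). In low iron this blocks translation of mRNAs with an IRE in the 5′ UTR and stabilises Tfrc mRNA, which has IREs in the 3′ UTR.

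Protein-coding transcripts of the GRCm38 reference (GENCODE M21) were searched for a 17-base form of the IRE, a C, 5 stem bases, the 6-base loop CAGTGN with N other than G, and 5 bases that pair with the stem, G-T pairs included. The pattern was present in 222 of 21901 genes (1.01%) and in 4 of the 10 iron handling genes. These sites are shown because they mark mRNAs on which iron regulatory proteins can act, though not necessarily all of them. Capitals mark the loop. Fth1 and Ftl1 had nearly the same site in exon 1, in the 5′ UTR, at chr19:9982738-9982754 on the plus strand and chr7:45459785-45459801 on the minus strand. Slc40a1 had 1 site in exon 1, in the 5′ UTR, at chr1:45925471-45925487 on the minus strand. Tfrc had 4 sites in exon 19, in the 3′ UTR on the plus strand, at chr16:32631225-32631241, chr16:32631604-32631620, chr16:32631669-32631685 and chr16:32631716-32631732, listed here in that order.
Fth1: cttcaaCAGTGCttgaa
Ftl1: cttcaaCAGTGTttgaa
Slc40a1: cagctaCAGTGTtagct
Tfrc: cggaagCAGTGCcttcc
Tfrc: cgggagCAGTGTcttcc
Tfrc: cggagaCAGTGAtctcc
Tfrc: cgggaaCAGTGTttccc
A match is a description of the letters. A gene without one, such as Slc11a2, lacks only this form of the pattern in the transcripts searched.

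The promoter of Hamp is shown because its level differed between libraries and because it carries motifs of both pathways named above. The 250 bases before the RefSeq transcription start lie at chr7:30944030-30944279 on the minus strand (GRCm38.p6), with capitals for GGCGCC, a BMP-responsive motif to which SMAD proteins bind, and for TTCTTGGAA, a match to the STAT motif TTCNNNGAA.
Hamp: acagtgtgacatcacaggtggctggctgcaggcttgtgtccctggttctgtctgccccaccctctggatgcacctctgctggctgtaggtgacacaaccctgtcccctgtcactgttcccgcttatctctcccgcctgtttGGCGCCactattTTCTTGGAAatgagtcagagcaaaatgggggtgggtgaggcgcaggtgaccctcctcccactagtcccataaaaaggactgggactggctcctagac
GGCGCC lies 109 to 104 bases and TTCTTGGAA 97 to 89 bases before the start, and the motifs do not overlap. As patterns, GGCGCC and TTCNNNGAA read the same on either strand. Among 32851 mouse promoter windows of this length, 9.59% held GGCGCC, 7.02% held TTCNNNGAA and 0.368% held both.

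Levels are CPM, counts scaled to library size, on effective library sizes, that is, column totals multiplied by a TMM factor that corrects for library composition. Column totals ranged from 20433100 to 29327722 counts and TMM factors from 0.9 to 1.367, the highest being that of OGT-KO. A range after a log2 ratio is a 95% exact (Clopper-Pearson) interval for counting error only, since reads that carry no molecular identifiers may repeat a molecule. The check of the OGA-KO label held, with Oga at 10.4 CPM in OGA-KO and 62.2 in OGA control at 14 days and at 12.8 CPM in OGA-KO and 67.2 in OGA control at 28 days. Ogt was at 43.2 CPM in OGT-KO and 58.0 CPM in OGT control, which in whole liver does not check the OGT-KO label. Hepatocyte markers summed to 63421 CPM in OGT-KO, against 88889 in OGT control and 97536 to 104486 in the 4 OGA libraries, with no marker at 0. OGT-KO was also higher in summed markers of Kupffer cells and macrophages (1555 CPM, against 409 in OGT control and 225 to 280 in the OGA libraries) and of stellate cells and matrix (2363 CPM, against 284 in OGT control and 174 to 253 in the OGA libraries). Cholangiocyte markers, 7 of 10 with a row, summed to 434 CPM in OGT-KO, against 105 in OGT control and 74.4 to 90.6 in the OGA libraries. Without Spp1 they summed to 124 CPM in OGT-KO, 62.7 in OGT control and 48.2 to 56.2 in the OGA libraries. Erythroid markers, 6 of 12 with a row, summed to 57.8 CPM in OGT-KO, 189 in OGT control and 274 to 358 in the OGA libraries. Alas2 made up most of the difference between the OGT libraries. Without Alas2 the markers summed to 51.0 CPM in OGT-KO, 72.7 in OGT control and 105 to 182 in the OGA libraries. In OGT-KO the edgeR test below called 2 of 10 sinusoidal endothelial markers risen and 5 fallen, beside 26.1% and 26.6% of all genes. These markers were mixed, with a median log2 ratio of -0.33 in OGT-KO. They summed to 342 CPM in OGT-KO, 270 in OGT control and 304 to 336 in the OGA libraries, and without Stab1 to 181 CPM in OGT-KO, 230 in OGT control and 253 to 282 in the OGA libraries. Neutrophil markers, 3 of 8 with a row, summed to 19.0 CPM in OGT-KO, 2.77 in OGT control and 3.32 to 5.63 in the OGA libraries.

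In OGT-KO liver at 28 days Tfrc and Slc11a2, both of which serve cellular iron uptake, and the ferritin light chain Ftl1 fell relative to OGT control, and the ferroxidase Cp rose. The test was an edgeR quasi-likelihood fit of all 6 libraries, with terms for line (OGT or OGA), day, OGA-KO and OGT-KO and an adjusted p under 0.05 over 12026 genes. It took its spread from the OGA libraries and assumed that the lone OGT libraries vary alike. It called 1 of the 10 genes risen and 3 fallen, beside 26.1% of all genes risen and 26.6% fallen (52.7% either way), so that the share of iron handling genes called was no larger than that of all genes. A fold rule without a test, at least 2-fold with at least 1 CPM in the higher library, took Tfrc and Slc11a2 as lower and none as higher, beside 11.7% of all genes lower and 16.4% higher (28.1% either way). Of the genes past this rule 58.3% were higher in OGT-KO, and 77.3% when CPM was scaled by column totals alone, which put the all-gene median log2 ratio at 0.37. On that scale Tfrc and Slc11a2 were below 2-fold, at log2 ratios of -0.87 and -0.91, and none of the 10 genes passed. The median log2 ratio of the 10 genes was -0.19, with the opposite sign (0.18) under column totals, beside -0.00 for all genes.

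**Figure D1:**
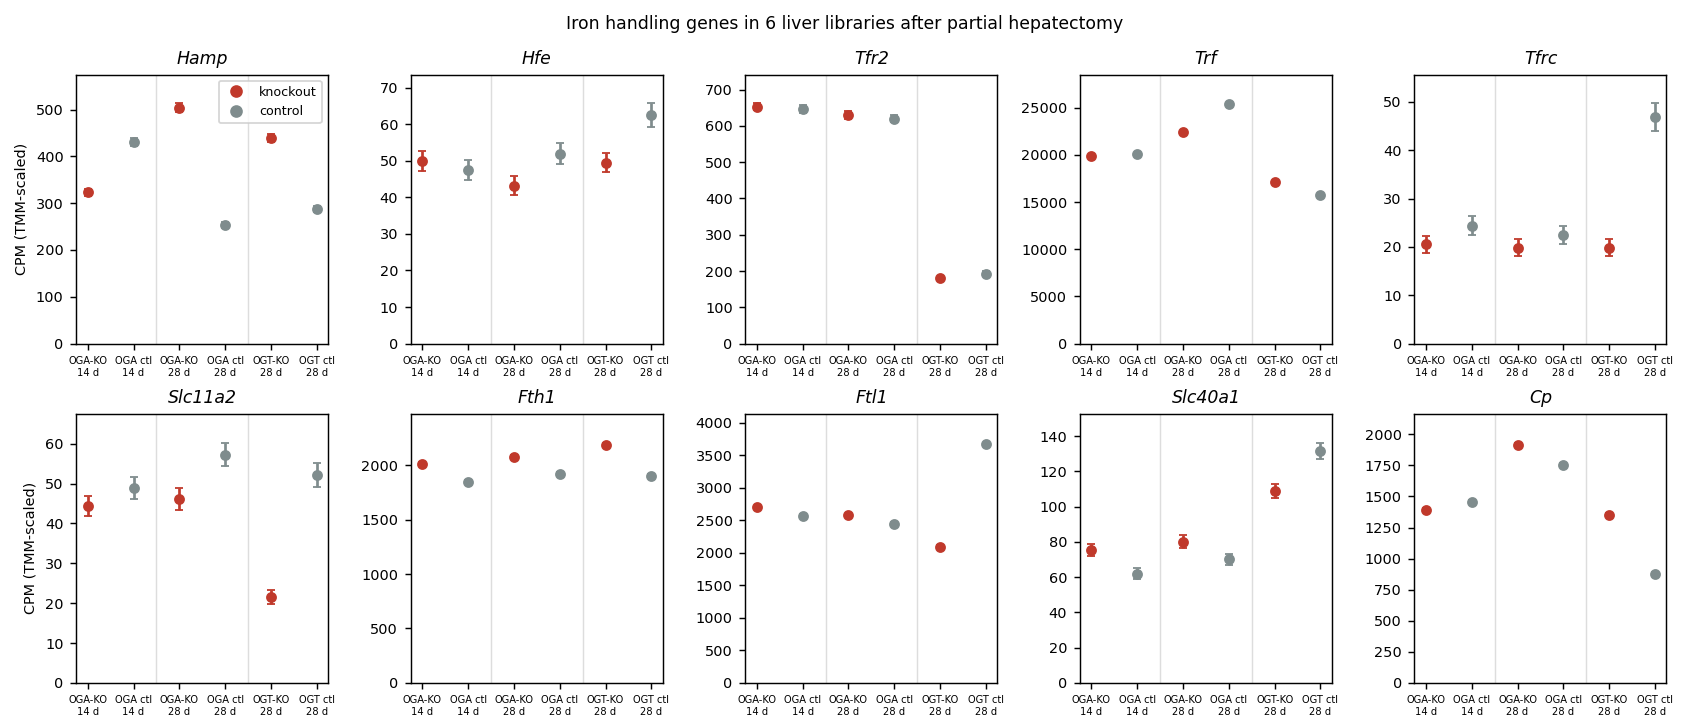
CPM (TMM-scaled) of the 10 iron handling genes in the 6 libraries, 1 point per library with knockouts in red and controls in grey; bars are 95% counting intervals. Tfr2 separates the OGT line (180 and 193 CPM) from the OGA line (620 to 653 CPM), Tfrc is high in OGT control alone (46.8 CPM) and Slc11a2 is low in OGT-KO alone (21.5 CPM).

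Among the hormone and its sensors, Hamp (ENSMUSG00000050440) stood at 440 CPM in OGT-KO and 287 CPM in OGT control. In the OGA line it stood at 323 CPM in OGA-KO and 431 CPM in OGA control at 14 days, and at 504 CPM in OGA-KO and 253 CPM in OGA control at 28 days. Hamp was thus lower in OGA-KO than in its control at 14 days, and at 28 days it was higher in the knockout than in its control in both lines. The log2 ratio of OGA-KO over OGA control was -0.42 (-0.46 to -0.38) at 14 days and 0.99 (0.95 to 1.04) at 28 days, a 1.99-fold difference just below the 2-fold rule. The log2 ratio of OGT-KO over OGT control was 0.61 (0.57 to 0.66), with an edgeR adjusted p of 0.294. The spread behind that p includes the change of the OGA-KO ratio of Hamp between the times.

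Hamp differed with time in opposite directions in OGA-KO and in OGA control. From 14 to 28 days the log2 ratio (28 over 14 days) was 0.64 (0.60 to 0.68) in OGA-KO and -0.77 (-0.81 to -0.72) in OGA control. The highest and lowest of its 4 OGA libraries differed by 1.99-fold, against 1.05- to 1.37-fold for the other 9 iron handling genes. Among 8117 genes with a mean of at least 10 CPM the median of this spread was 1.17-fold and the 90th percentile 1.43-fold, and 1.88% of genes spread more widely than Hamp. On the TMM scale, only OGT-KO and the 14-day OGA control of the 6 libraries lay within counting error of their neighbour in the order of Hamp levels. In the deposited CPM, which have no composition factor, Hamp was higher in OGT-KO (596 CPM) than in the OGA libraries (229 to 454 CPM).

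Mouse has a near-identical second hepcidin gene, Hamp2, and the counting may split reads between the copies, so Hamp values carry that uncertainty. Hamp2 stood at 48.1 CPM in OGT-KO and 49.6 CPM in OGT control. It stood at 10.6 CPM in OGA-KO and 6.94 CPM in OGA control at 14 days, and at 13.6 CPM in OGA-KO and 5.88 CPM in OGA control at 28 days. OGT control over OGA control gave a log2 ratio of 3.06 (2.83 to 3.33) for Hamp2 and of 0.18 (0.13 to 0.23) for Hamp. With both genes summed, a comparison chosen after seeing the data, the log2 ratio was 0.53 in the OGT pair, -0.39 in the OGA pair at 14 days and 0.9996 at 28 days.

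Hfe and Tfr2 encode hepatocyte proteins that take part in sensing transferrin iron upstream of Hamp. Hfe (ENSMUSG00000006611) stood at 49.4 CPM in OGT-KO and 62.4 CPM in OGT control. Among OGA livers it stood at 49.8 CPM in OGA-KO and 47.5 CPM in OGA control at 14 days, and at 43.1 CPM in OGA-KO and 52.0 CPM in OGA control at 28 days. On the TMM scale OGT control was the highest library, and the 4 libraries next in order each lay within counting error of a neighbour. The OGT-KO log2 ratio was -0.34 (-0.44 to -0.23) with an edgeR adjusted p of 0.0946, and 0.03 under column totals.

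Tfr2 (ENSMUSG00000029716) stood at 180 CPM in OGT-KO and 193 CPM in OGT control. It stood at 653 CPM in OGA-KO and 647 CPM in OGA control at 14 days, and at 630 CPM in OGA-KO and 620 CPM in OGA control at 28 days. The gene split the lines rather than the genotypes. OGT control over OGA control at 28 days gave a log2 ratio of -1.68 (-1.73 to -1.64), while OGT-KO over OGT control gave -0.10 (-0.16 to -0.05; edgeR adjusted p = 0.406), and 0.27 under column totals. The OGA-KO ratios were 0.01 and 0.02 at 14 and 28 days, with intervals that include 0.

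**Figure D2:**
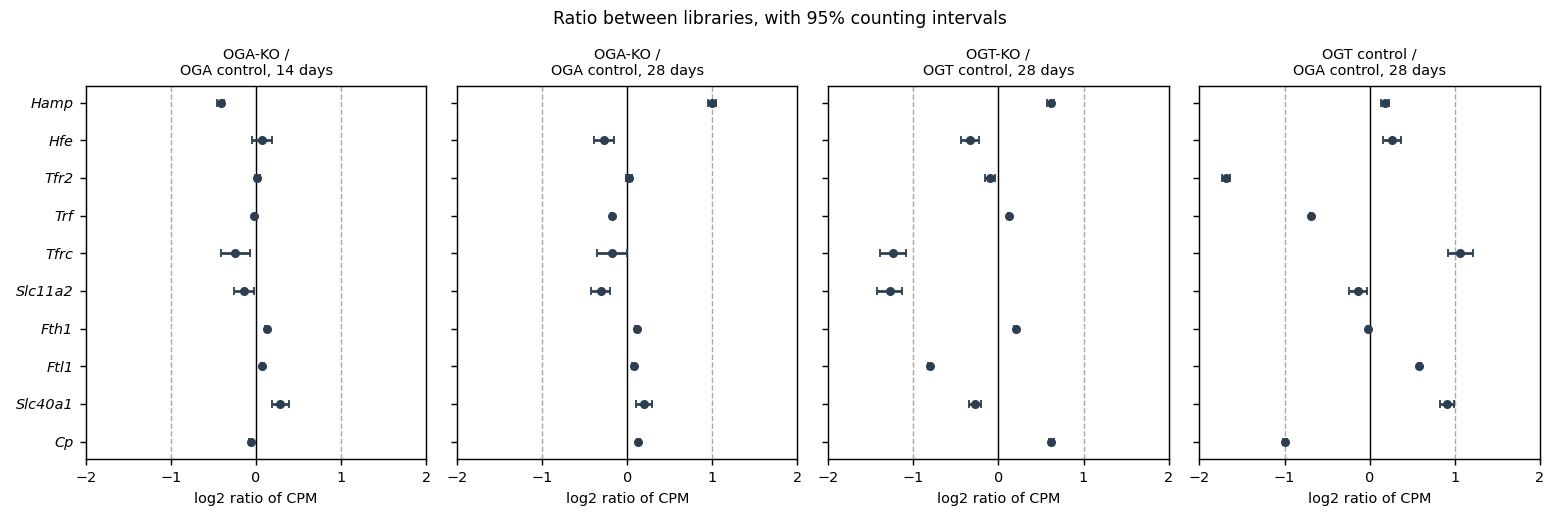
Log2 ratio of CPM for each iron handling gene in 4 comparisons, with 95% counting intervals; dashed lines mark 2-fold. Tfrc and Slc11a2 lie below -1 in OGT-KO over OGT control, Hamp lies at -0.42 and 0.99 in the OGA-KO comparisons, and Tfr2 (-1.68) and Tfrc (1.06) lie outside the lines between the controls.

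Transferrin (Trf, ENSMUSG00000032554) is the plasma carrier of iron and a main secretory product of hepatocytes. It stood at 17147 CPM in OGT-KO and 15740 CPM in OGT control. It stood at 19877 CPM in OGA-KO and 20139 CPM in OGA control at 14 days, and at 22383 CPM in OGA-KO and 25401 CPM in OGA control at 28 days. On the TMM scale both OGT libraries were below all 4 OGA libraries. In the deposited CPM, which have no composition factor, Trf was higher in OGT-KO (23252 CPM) than in the OGA libraries (18316 to 22948 CPM). The log2 ratio of OGT-KO over OGT control was 0.12 (edgeR adjusted p = 0.351; 0.50 and called under column totals, edgeR adjusted p = 0.00743), those of OGA-KO were -0.02 and -0.18 at 14 and 28 days, and that of OGT control over OGA control was -0.69.

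The transferrin receptor Tfrc (ENSMUSG00000022797) takes up transferrin-bound iron. It had 554 counts (19.8 CPM) in OGT-KO and 1081 counts (46.8 CPM) in OGT control. Its OGA libraries had 20.5 CPM in OGA-KO and 24.3 CPM in OGA control at 14 days, and 19.8 CPM in OGA-KO and 22.4 CPM in OGA control at 28 days. OGT control was the library that stood apart. On the TMM scale, from the 14-day OGA control downward each library, OGT-KO included, was within counting error of the next. OGT control held 2.35 times the level of OGT-KO and 2.09 times that of OGA control at 28 days. The log2 ratio of OGT-KO over OGT control was -1.24 (-1.39 to -1.09; edgeR adjusted p = 0.00084). When the line term was left out, so that OGT and OGA controls formed a common baseline, the effect was -0.73 with an edgeR adjusted p of 0.327 and Tfrc was no longer called. Erythroid precursors and macrophages also express Tfrc, and their summed markers in OGT-KO lay on opposite sides of OGT control, as given above; their part in the Tfrc values was not tested.

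Slc11a2 (ENSMUSG00000023030) encodes DMT1, which moves ferrous iron out of endosomes into the cytosol. It had 600 counts (21.5 CPM) in OGT-KO and 1204 counts (52.2 CPM) in OGT control. OGA livers held 44.3 CPM in OGA-KO and 48.8 CPM in OGA control at 14 days, and 46.1 CPM in OGA-KO and 57.3 CPM in OGA control at 28 days. OGT-KO was the library that stood apart, below all 5 others. The log2 ratio of OGT-KO over OGT control was -1.28 (-1.42 to -1.14; edgeR adjusted p = 0.000733), and Slc11a2 was the only one of the 10 genes still called without the line term (-1.33, edgeR adjusted p = 0.013). OGT control and OGA control at 28 days were close, at a log2 ratio of -0.14 (-0.25 to -0.03).

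Iron is stored in ferritin, a shell of heavy (Fth1) and light (Ftl1) chains. Both genes have many processed copies in the mouse genome, so their counts are uncertain to the extent that the counting split or dropped shared reads. Fth1 (ENSMUSG00000024661) stood at 2190 CPM in OGT-KO and 1903 CPM in OGT control, at 2014 CPM in OGA-KO and 1845 CPM in OGA control at 14 days, and at 2078 CPM in OGA-KO and 1922 CPM in OGA control at 28 days. It was higher in each knockout than in its control, with log2 ratios of 0.20 in OGT-KO (edgeR adjusted p = 0.119; 0.57 and called under column totals, edgeR adjusted p = 0.004) and of 0.13 and 0.11 in OGA-KO at 14 and 28 days. Ftl1 (ENSMUSG00000050708) stood at 2095 CPM in OGT-KO and 3668 CPM in OGT control. It stood at 2705 CPM in OGA-KO and 2570 CPM in OGA control at 14 days, and at 2579 CPM in OGA-KO and 2447 CPM in OGA control at 28 days. On the TMM scale OGT-KO was the lowest and OGT control the highest of the 6 libraries. In the deposited CPM, which have no composition factor, Ftl1 was higher in OGT-KO (2841 CPM) than in the OGA libraries (2211 to 2492 CPM). Its OGT-KO log2 ratio was -0.81 (-0.82 to -0.79; edgeR adjusted p = 0.00156), or -0.50 without the line term (edgeR adjusted p = 0.356), where it was no longer called.

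The ratio of Fth1 to Ftl1 counts within a library does not depend on library scaling. It was 1.05 in OGT-KO and 0.519 in OGT control. In the OGA line it was 0.745 in OGA-KO and 0.718 in OGA control at 14 days, and 0.806 in OGA-KO and 0.785 in OGA control at 28 days. The OGT libraries lay on either side of the 4 OGA libraries, which kept within a narrow band. Since read counts also scale with transcript length, the ratio compares libraries and not the amounts of the chains.

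**Figure D3:**
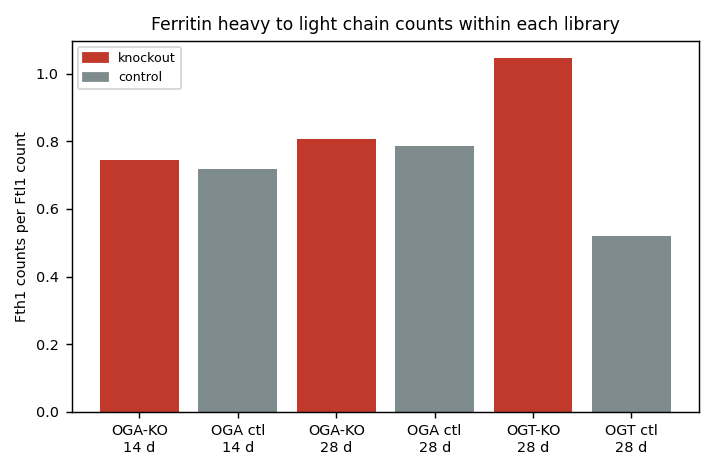
Fth1 counts per Ftl1 count in each of the 6 libraries (bars from 0; knockouts in red, controls in grey). The ratio is 1.05 in OGT-KO and 0.519 in OGT control, on either side of the OGA libraries (0.718 to 0.806).

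Among the genes of iron export, Slc40a1 (ENSMUSG00000025993), the ferroportin gene, stood at 109 CPM in OGT-KO and 131 CPM in OGT control. It stood at 75.3 CPM in OGA-KO and 61.7 CPM in OGA control at 14 days, and at 79.99 CPM in OGA-KO and 70.0 CPM in OGA control at 28 days. Both OGT libraries were above all OGA libraries. OGT control over OGA control gave a log2 ratio of 0.91 (0.83 to 0.99), OGA-KO over OGA control 0.29 (0.19 to 0.38) at 14 days and 0.19 (0.10 to 0.28) at 28 days. OGT-KO over OGT control gave -0.27 (-0.35 to -0.20; edgeR adjusted p = 0.0659), and 0.10 under column totals. Macrophages are a main site of ferroportin. Their 12 markers had a median log2 ratio of 2.12 in OGT-KO over OGT control, where Slc40a1 was not higher on the TMM scale, and of 0.85 in OGT control over OGA control, where it was; their part in either value was not tested.

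Ceruloplasmin (Cp, ENSMUSG00000003617) is a copper ferroxidase of plasma that oxidises iron for loading on transferrin, and an acute phase protein. It stood at 1350 CPM in OGT-KO and 876 CPM in OGT control. In the OGA line it stood at 1395 CPM in OGA-KO and 1457 CPM in OGA control at 14 days, and at 1916 CPM in OGA-KO and 1751 CPM in OGA control at 28 days. OGT control was the lowest library, and on the TMM scale OGT-KO lay just below the OGA libraries. In the deposited CPM, which have no composition factor, Cp was higher in OGT-KO (1830 CPM) than in the OGA libraries (1285 to 1725 CPM). The OGT-KO log2 ratio was 0.62 (0.60 to 0.65; edgeR adjusted p = 0.00686). It was -0.05 without the line term (edgeR adjusted p = 0.951), and the call was lost in fits without the day term that left out OGA control at 14 or at 28 days (edgeR adjusted p = 0.0871 and 0.0864). Cp was higher at 28 than at 14 days in OGA-KO and in OGA control, with log2 ratios of 0.46 and 0.26. OGT control over OGA control gave -0.999 (-1.02 to -0.975), just short of the 2-fold rule.

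The 4 genes with the IRE pattern did not take one direction in OGT-KO over OGT control, with log2 ratios of 0.20 for Fth1, -0.81 for Ftl1, -0.27 for Slc40a1 and -1.24 for Tfrc. In OGA-KO over OGA control, Fth1, Ftl1 and Slc40a1, with the site in the 5′ UTR, were higher at both times (0.07 to 0.29). Tfrc, with the sites in the 3′ UTR, was lower at both (-0.25 and -0.18), with a 28-day interval of -0.36 to -0.0035. None of these 4 genes was called in OGA-KO (edgeR adjusted p of 0.325 or more). The IRE acts on translation of the 5′ UTR group, which mRNA counts do not measure.

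The edgeR effect of OGA-KO, a mean over both times, called none of the 10 genes, beside 0.0333% of all genes. At an unadjusted p under 0.05 it had 3 of the 10, beside 13% of all genes. These were Slc40a1, Slc11a2 and Tfrc, with edgeR adjusted p of 0.325, 0.341 and 0.38 in that order. DESeq2 had 0 of the 10 at either threshold, beside 2.48% of all genes unadjusted and 0.505% of the genes it gave an adjusted p. For Hamp the mean over both times was a log2 effect of 0.29 with an edgeR adjusted p of 0.719, since the ratios at the 2 times had opposite signs. None of the 10 genes passed the 2-fold rule in OGA-KO over OGA control at 14 days, beside 0.839% of all genes, or at 28 days, beside 2.57%. None passed from 14 to 28 days in OGA-KO (1.32% of all genes) or in OGA control (0.927%). These comparisons share libraries and are not independent of each other.

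Between the control libraries at 28 days, OGT control over OGA control, Tfrc was higher and Tfr2 lower past the 2-fold rule, beside 4.72% of all genes higher and 5.72% lower (10.4% either way). The fold rule thus took as many of the 10 genes between the controls as in OGT-KO over OGT control. The labels give both controls as floxed mice of the same strain, age and time, and whether line, cohort or library handling goes with the difference cannot be told apart. OGT control serves in both comparisons, so that a high Tfrc there gives opposite signs in each.

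**Figure D4:**
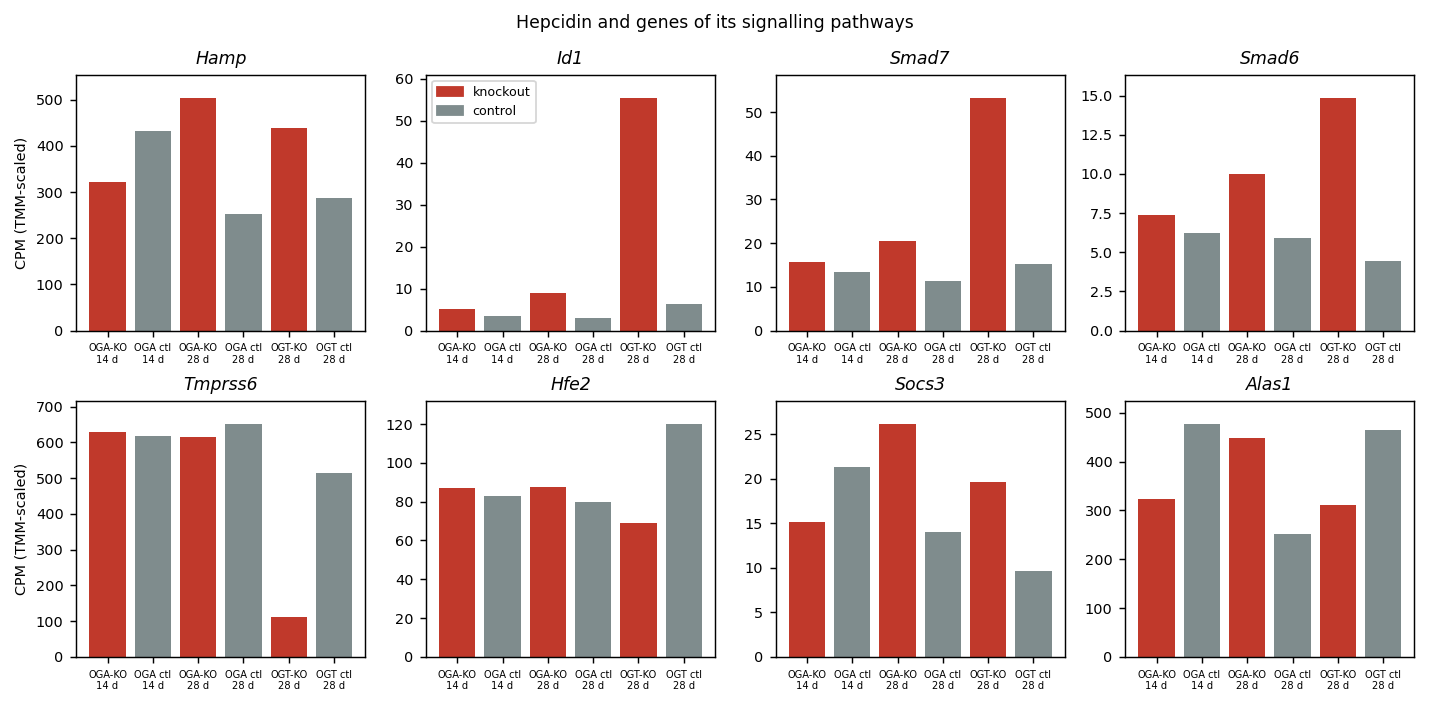
CPM (TMM-scaled) of Hamp and of genes of its regulation and of haem synthesis in each library (bars from 0; knockouts in red, controls in grey). Id1 (55.5 CPM) and Smad7 (53.3 CPM) are highest and Tmprss6 (112 CPM) is lowest in OGT-KO. Hamp, Socs3 and Alas1 are lower in OGA-KO than in OGA control at 14 days and higher at 28 days. In OGT-KO over OGT control Hamp and Socs3 are higher and Alas1 is lower.

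Genes of BMP and SMAD signalling to hepcidin were mixed in OGT-KO. Of 20 listed, 19 had a row, of which 8 rose and 3 fell by edgeR, beside 26.1% and 26.6% of all genes, with a median log2 ratio of 0.22. Those at least 2-fold higher were Id1, Bambi, Smad7, Smad6 and Fgl1, of which Smad6 and Fgl1 were named after their values were seen, and the only one at least 2-fold lower was Tmprss6. Fgl1 stood at 224 CPM in OGT-KO and 86.6 CPM in OGT control, against 377 to 478 CPM in the OGA libraries, and its effect changed sign without the line term (log2 -0.19; edgeR adjusted p = 0.894). Id1, a direct target of BMP signalling, stood at 55.5 CPM in OGT-KO and 6.41 CPM in OGT control, a log2 ratio of 3.10 (2.87 to 3.37; edgeR adjusted p = 0.000814). Smad7, which feeds back on the pathway, stood at 53.3 CPM in OGT-KO and 15.2 CPM in OGT control (log2 1.81; edgeR adjusted p = 0.00216). Bambi, a decoy receptor, had a log2 ratio of 2.003. Tmprss6, the protease that cleaves hemojuvelin and holds hepcidin down, stood at 112 CPM in OGT-KO and 513 CPM in OGT control (log2 -2.20; edgeR adjusted p = 0.000167). Hemojuvelin itself (Hfe2 in the annotation used) stood at 69.1 CPM in OGT-KO and 120 CPM in OGT control (log2 -0.80; edgeR adjusted p = 0.00195). It was not called in the fit that left out the line term (edgeR adjusted p = 0.272). The ligands Bmp6 and Bmp2 had log2 ratios of 0.71 and 0.21 and edgeR adjusted p of 0.0521 and 0.278. Under column totals 14 genes of this list rose and 2 fell, beside 44.4% and 15.5% of all genes. Without the line term 4 rose and 1 fell, beside 13.4% and 11.8% of all genes, and Id1 and Smad7 remained among those that rose, with Tmprss6 the one that fell.

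In OGA-KO the same list had Id1 as its highest gene at both times. Id1 stood at 5.18 CPM in OGA-KO and 3.39 CPM in OGA control at 14 days, and at 8.94 CPM in OGA-KO and 3.06 CPM in OGA control at 28 days. The log2 ratios were 0.60 (0.21 to 1.02) and 1.52 (1.17 to 1.94), and the edgeR adjusted p of the mean effect was 0.26. Smad7 had log2 ratios of 0.23 and 0.87. Unlike Hamp, both genes were higher in OGA-KO at 14 days as well as at 28 days.

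Of the genes of IL-6 and STAT3 signalling to hepcidin, 9 of 10 had a row, of which 5 rose and 1 fell in OGT-KO (26.1% and 26.6% of all genes), with a median log2 ratio of 0.48. Under column totals 6 rose and 1 fell (44.4% and 15.5% of all genes), and without the line term 1 rose and 1 fell (13.4% and 11.8%). Inhbb, which encodes a subunit of activin B, rose (log2 2.91; edgeR adjusted p = 0.000649), and Cebpa, a hepatocyte transcription factor that activates Hamp, fell (log2 -2.21; edgeR adjusted p = 0.000508). Socs3, an early target of STAT3, stood at 19.7 CPM in OGT-KO and 9.70 CPM in OGT control (log2 1.01; edgeR adjusted p = 0.122). Socs3 stood at 15.2 CPM in OGA-KO and 21.3 CPM in OGA control at 14 days, and at 26.2 CPM in OGA-KO and 14.1 CPM in OGA control at 28 days. Its log2 ratios were -0.49 and 0.89, the same signs as those of Hamp. Median log2 ratios of the 20 acute phase genes, Cp and Lcn2 among them, were -0.20 and 0.23 in OGA-KO at 14 and 28 days. In OGA-KO at 28 days 5 were at least 2-fold higher and 0 lower, beside 2.57% of all genes either way. From 14 to 28 days 6 were higher in OGA-KO and 4 in OGA control, beside 1.32% and 0.927% of all genes either way. Between the controls at 28 days, OGT control over OGA control, the median of the acute phase genes was -0.98. There 0 were at least 2-fold higher and 9 lower, beside 4.72% and 5.72% of all genes. In OGT-KO the median was -0.64, with 5 risen and 9 fallen by edgeR, beside 26.1% and 26.6% of all genes. The part of the acute phase genes in the Hamp values was not tested.

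Iron regulatory proteins and cytosolic iron carriers, all 8 with a row, had 1 gene that rose and 5 that fell in OGT-KO (26.1% and 26.6% of all genes), with a median log2 ratio of -0.45. Under column totals the median was -0.08, where 3 rose and 3 fell (44.4% and 15.5% of all genes), and without the line term none rose and 3 fell (13.4% and 11.8%). Aco1 and Ireb2, which encode the iron regulatory proteins that bind the IRE, both fell, with log2 ratios of -0.97 (edgeR adjusted p = 0.00116) and -0.79 (edgeR adjusted p = 0.00643), and both were still called without the line term (edgeR adjusted p = 0.0281 and 0.0384). Cisd1, an iron-sulfur protein of the outer mitochondrial membrane, had the lowest ratio (log2 -1.53; edgeR adjusted p = 0.000359). Ncoa4, the receptor that carries ferritin to lysosomes, was the gene that rose (log2 0.44; edgeR adjusted p = 0.012). A fit that left out the line term gave it a larger effect that was not called (log2 0.72; edgeR adjusted p = 0.107).

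Other iron and haem transport genes, 19 of 20 with a row, had 8 that rose and 6 that fell in OGT-KO (26.1% and 26.6% of all genes), with a median log2 ratio of -0.07. Under column totals the median was 0.30, where 9 rose and 3 fell (44.4% and 15.5% of all genes). Without the line term 3 rose and 3 fell (13.4% and 11.8%), and with DESeq2 4 rose and 3 fell (10% and 14%). Flvcr2 stood at 13.7 CPM in OGT-KO and 0.866 CPM in OGT control (log2 3.86; edgeR adjusted p = 0.000521), on 20 counts in OGT control. Lcn2, a siderophore-binding acute phase protein, stood at 303 CPM in OGT-KO and 23.9 CPM in OGT control (log2 3.66; edgeR adjusted p = 0.015). At 14 days Lcn2 stood at 16.9 CPM in OGA-KO and 30.1 CPM in OGA control (log2 -0.83). At 28 days Lcn2 stood at 293 CPM in OGA-KO and 94.4 CPM in OGA control (log2 1.64). Flvcr2 stood at 3.55 to 5.54 CPM in the OGA libraries, above OGT control and below OGT-KO. Neither was called without the line term (edgeR adjusted p = 0.163 for Flvcr2 and 0.316 for Lcn2). The metalloreductase Steap2, by contrast, was called in both fits (log2 2.64; adjusted p = 0.000493 by edgeR with the line term and 0.0107 by edgeR with that term left out). Abcb8, a mitochondrial transporter, and Timd2, a ferritin receptor of the mouse, had the lowest ratios, at log2 -1.73 and -1.44.

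Of 9 haem synthesis genes 7 fell and none rose in OGT-KO, beside 26.6% of all genes fallen, with a median log2 ratio of -0.94. Alas1 and Uros did not pass the test, and Uros, at log2 -0.30, was at 0.07 under column totals. On that scale 5 of the 9 fell (15.5% of all genes) and the median was -0.57, and without the line term 4 fell (11.8%). Hepatocyte markers were lower beside this group, with 8 of 10 fallen and a median log2 ratio of -0.61; their part was not tested. Alas2, the erythroid form of the first enzyme, stood at 6.80 CPM in OGT-KO and 116 CPM in OGT control (log2 -4.08; edgeR adjusted p = 0.000119). It is itself 1 of the erythroid markers and carries most of the difference in their sum between the OGT libraries, as given above, and the part of erythroid cells was not tested. Cpox had a log2 ratio of -1.80 (edgeR adjusted p = 0.000253). The housekeeping form Alas1 stood at 311 CPM in OGT-KO and 465 CPM in OGT control (log2 -0.58; edgeR adjusted p = 0.31). In the OGA line Alas1 stood at 324 CPM in OGA-KO and 477 CPM in OGA control at 14 days, and at 447 CPM in OGA-KO and 252 CPM in OGA control at 28 days, log2 ratios of -0.56 and 0.83 with the signs of Hamp.

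Haem and haemoglobin scavenging genes had 2 of 8 that rose and 1 that fell in OGT-KO (26.1% and 26.6% of all genes), with a median log2 ratio of 0.24, and the same counts without the line term (13.4% and 11.8%). Under column totals 6 rose, 1 fell (44.4% and 15.5% of all genes) and the median was 0.61. Hmox1, the inducible haem oxygenase that frees iron from haem, stood at 152 CPM in OGT-KO and 25.4 CPM in OGT control (log2 2.58; edgeR adjusted p = 0.000192). Cd163, the haemoglobin scavenger receptor of macrophages, rose as well (log2 2.51; edgeR adjusted p = 0.00073), beside the macrophage markers given above, whose part in both genes was not tested. Blvrb, a biliverdin reductase, fell (log2 -1.65; edgeR adjusted p = 0.000301). Iron-sulfur cluster assembly genes, 19 of 20 with a row, had none that rose and 10 that fell (26.1% and 26.6% of all genes), none of them by 2-fold, with a median log2 ratio of -0.42, beside the -0.61 of the hepatocyte markers. That list rests on scaling, since its median was -0.05 under column totals, where 1 rose and 3 fell (44.4% and 15.5% of all genes), and 3 fell without the line term (11.8%). Bola3 had the lowest ratio, at log2 -0.80.

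**Figure D5:**
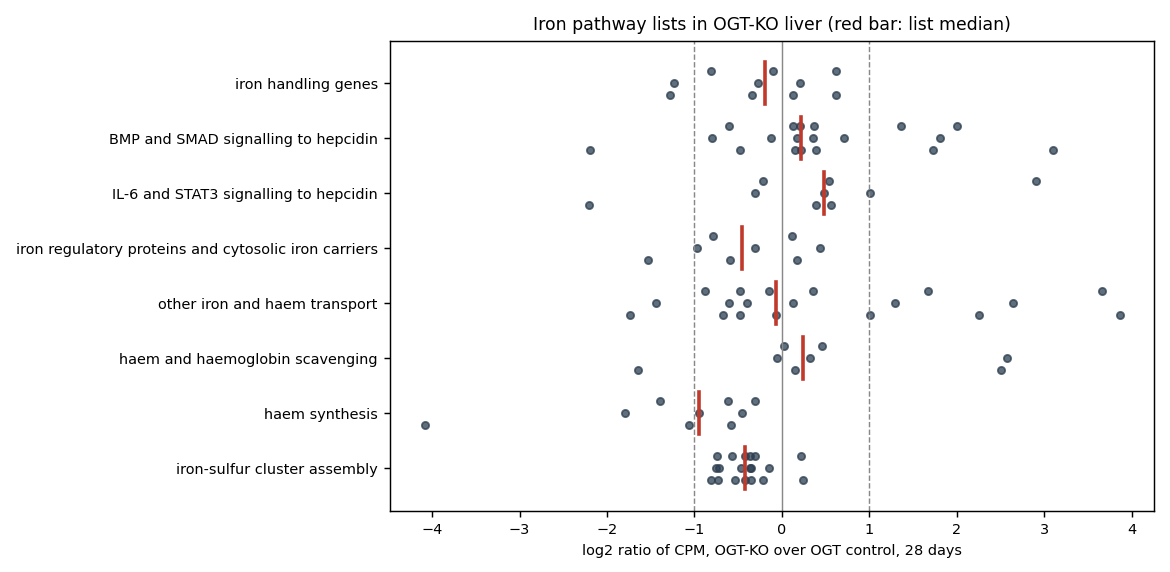
Log2 ratio of CPM in OGT-KO over OGT control at 28 days for each gene of the iron handling set and of 7 further iron lists, 1 point per gene, with list medians in red and dashed lines at 2-fold. On this TMM scale haem synthesis (median -0.94) lies below 0, and transport genes spread from -1.73 (Abcb8) to 3.86 (Flvcr2).

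The genes with the closest pattern were found by the Euclidean distance between log2 CPM centred over the 6 libraries, among 8116 other genes with a mean of at least 10 CPM. Hfe2, which encodes hemojuvelin, was the nearest of all to Ftl1, at a distance of 0.06. Nearest to Tfrc was Kbtbd7 (0.12) and to Slc11a2 the thyroid hormone receptor gene Thrb (0.15). Hamp had the most distant nearest gene of the 10, Zfp970 at 0.30, followed by Mrgbp and Ppan. The nearest to the others were Zc3hav1 for Hfe, 2510002D24Rik for Tfr2, Ggnbp1 for Trf, Cmip for Fth1, Fbxo30 for Slc40a1 and Ahdc1 for Cp. With 6 libraries such likeness is a description of these pools.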

How the data were processed

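Whole-liver mRNA of 6 pools was sequenced after TRIZOL extraction and Tecan universal plus mRNA-seq preparation, per the labels' protocols. The deposited count table holds whole-number gene counts, with both lanes in 1 column per library, and the deposited normalised table holds CPM without a composition factor. The authors' CPM were only checked against the counts: their divisors placed 0.769% of OGT-KO and 0.104% of OGT control counts outside the rows. STAR, Subread, edgeR and mm39 are named in the submitters' processing notes. Strandedness, versions and the row filter are not given in the sources used here. The tables carry no coordinates; positions come from matches to GRCm38.

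Symbols were matched for 12019 of 12027 rows. Ratios used TMM sizes, a prior count of 2 and exact conditional binomial intervals; a count of 0 allows 0.107 to 0.13 CPM (3 counts). The edgeR 4.0.16 quasi-likelihood fit (R 4.3.3) had 5 coefficients, 1 residual degree of freedom and Benjamini-Hochberg adjustment at 0.05. The DESeq2 1.42.0 test, other scalings, priors and filters, no line term, and leaving out each OGA library together with the day term were alternatives. The procedure was tested on simulated data. From each further list the text names the 2 highest and 2 lowest ratios in OGT-KO and the highest and lowest in OGA-KO at 5 CPM or more, plus a fixed set (Bmp6, Bmp2, Tmprss6, Hjv, Smad7, Id1, Socs3, Aco1, Ireb2, Hmox1, Alas1, Alas2). Members and lists were chosen with earlier results of these data known. Because each group is 1 pool, p-values measure only the spread between these libraries.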

Additional observations from a re-analysis of the deposited data

Results flagged for a closer look

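For Hamp, the log2 ratio of OGA-KO over OGA control was 0.99 at 28 days and -0.42 at 14 days, a difference of 1.41 with opposite signs at the 2 times and both counting intervals off 0. For Cp, the same ratio was 0.13 at 28 days and -0.06 at 14 days, a difference of 0.19 with opposite signs. Each time had 1 library per genotype, and neither difference between the times was tested.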

How the results depend on the processing

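No paired analysis was possible because each group is 1 library. The counts of iron handling genes past the 2-fold rule became 0 under library totals in OGT-KO. At 1.5-fold they were 5 in OGT-KO, 1 each in OGA-KO at 28 days, OGA-KO over time and OGA control over time, and 5 between controls. Over all genes, 1.5-fold gave 5553 in OGT-KO (3320 at 2-fold), 546 and 1014 in OGA-KO at 14 and 28 days (99 and 304), 652 and 474 over time in OGA-KO and OGA control (156 and 109) and 3194 between controls (1230). A minimum of 5 CPM gave 27, 160, 73 and 45 in the 4 OGA comparisons in that order, and a prior count of 10 gave 48 in OGA-KO at 14 days. The edgeR calls for OGT-KO were 6332 genes and 4 of the 10, against 3035 and 1 without the line term and 2891 genes with DESeq2. Those for OGA-KO were 4 genes, against 2 with RLE factors, 0 without the line term, 36 with DESeq2 and 0 to 318 leaving out 1 OGA library, without OGA-KO at 14 days giving 318. Each fit that left out a library also dropped the day term, to keep a residual degree of freedom, so these values change both choices at once. For OGT-KO that range was 3 to 5 of the 10 genes and 5605 to 6461 of all; Hfe was called without OGA-KO at either time and without the day term (adjusted p = 0.0445 and 0.0419 by edgeR).

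The OGT-KO effect changed sign under library totals for Hfe (0.03), Tfr2 (0.27) and Slc40a1 (0.10), where Trf (0.50) and Fth1 (0.57) became called, and without the line term for Trf (-0.28), Slc40a1 (0.20) and Cp (-0.05). The OGA-KO effect changed sign without the line term for Trf (0.06), Ftl1 (-0.11) and Slc40a1 (-0.06). With the day term also dropped, it did so without OGA-KO at 14 days for Tfr2 (-0.01), without OGA control at 14 days for Cp (-0.08), without OGA-KO at 28 days for Hamp (-0.08), Hfe (0.00) and Cp (-0.20), and without OGA control at 28 days for Hamp (-0.06), Tfr2 (-0.01) and Trf (0.07). None of these OGA-KO effects was called. Leaving out 1 OGA library and the day term gave -0.08 to 0.71 for Hamp, -0.21 to 0.00 for Hfe, -0.01 to 0.05 for Tfr2, -0.27 to 0.07 for Trf and -0.20 to 0.26 for Cp. The cause was not tested. Of the values for single genes and medians, 382 stayed the same and 43 moved. A further 17 fitted effects changed sign, 4 became called and 4 lost their call. Of the counts of genes, 93 stayed the same and 27 moved. Each of the 10 genes had at least 489 counts per library, and the single pool per group is the main limit.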
